A study of Mus musculus with 18 samples.

Results

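Pax6, Foxc1, Barx2, Sox9, Sox10, Bhlha15, Ehf, Elf5 and Spdef encode transcription factors of gland development and secretory cell identity. They were taken by gene symbol, 9 of the 54232 genes in the table of counts, and all 9 had enough reads to be tested in every comparison. Whole lacrimal glands (LGs), the glands that secrete the watery part of tears, came from male mice in 6 groups of 3: BALB/c (labelled BALB/cJ) and NOD.H-2b (labelled NOD.B10Sn-H2b/J), each taken at the ages of 2, 4 or 6 months (2M, 4M and 6M). Each sample was 1 gland of 1 mouse, and its RNA was depleted of ribosomal RNA before sequencing. NOD.H-2b is a congenic line on the nonobese diabetic background that carries H2b at the MHC, and it is used to model Sjögren's syndrome. BALB/c, a separate inbred strain, served as control, so disease and other differences between the strains cannot be told apart. The question was how the factors differed between the strains and whether that difference changed with age.

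The LG forms from the conjunctival epithelium, which buds into the mesenchyme near the eye under FGF10, branches, and then makes acini that secrete protein and water. Pax6 gives the ocular surface epithelium its competence to bud, and Foxc1, Barx2, Sox9 and Sox10 act in the budding and branching that follow. Bhlha15, also called Mist1, builds the secretory apparatus of acinar cells, and Ehf, Elf5 and Spdef are ETS factors of glandular and mucosal epithelium.

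In the GRCm38 annotation the 9 genes are protein coding. Pax6 lies on chromosome 2 from 105668900 to 105697364 on the plus strand, Foxc1 on chromosome 13 from 31806633 to 31812476 on the plus strand, and Barx2 on chromosome 9 from 31846044 to 31913462 on the minus strand. Sox9 lies on chromosome 11 from 112782224 to 112787760 on the plus strand, and Sox10 on chromosome 15 from 79154908 to 79165240 on the minus strand. Bhlha15 is on chromosome 5 from 144190286 to 144194441 on the plus strand, and Spdef on chromosome 17 from 27714352 to 27728955 on the minus strand. Ehf, on chromosome 2 from 103263433 to 103303278 on the minus strand, and Elf5, from 103411688 to 103450989 on the plus strand, are neighbours, with 108409 bases and no protein coding gene between them. Pax6 and Barx2 each overlap 1 antisense gene, Pax6os1 and Gm31497, and share 0 exonic bases with it.

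Elf5 and Spdef were among the factors whose strain difference grew with age, so the bases before their start sites are shown, as RefSeq gives them on GRCm38.p6, 5' to 3' along the gene. Bases inside an annotated exon were left out, which leaves chr2:103423818-103424061 before the second start site of Elf5 and chr17:27728956-27729201 before that of Spdef. Capitals mark matches, on either strand, to short motifs of the families of these factors.
Elf5, second start site: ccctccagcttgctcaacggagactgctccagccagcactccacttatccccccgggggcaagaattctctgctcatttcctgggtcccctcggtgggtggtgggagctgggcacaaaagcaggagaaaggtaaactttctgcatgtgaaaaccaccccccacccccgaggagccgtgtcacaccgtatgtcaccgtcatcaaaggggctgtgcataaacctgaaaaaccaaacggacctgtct
Spdef: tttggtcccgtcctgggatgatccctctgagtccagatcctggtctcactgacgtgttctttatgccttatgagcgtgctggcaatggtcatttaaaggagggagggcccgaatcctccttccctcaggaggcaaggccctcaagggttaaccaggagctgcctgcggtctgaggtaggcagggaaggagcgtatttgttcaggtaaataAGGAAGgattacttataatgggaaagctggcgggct
The motifs searched were AGGAAG for ETS, ACAAT for SOX, CAGCTG for the E-box of bHLH factors, TAATTA for homeobox and TAAACA for forkhead factors, on both strands. Searched over the 250 bases before each start site, the first Elf5 window, which lies in an exon of another Elf5 transcript and is not shown, held a SOX match at -206 and an E-box match at -187 from the start site, and the second window held none of the 5. The Spdef window held an ETS match at -40. Of 32851 windows of the same length, 29.5% held the ETS motif, 27.7% the SOX motif, 13% the E-box, 12% the forkhead and 4.84% the homeobox motif, so such matches are common. Of the other factors, Pax6 had a SOX match at -230 of its first start site, and the windows of Foxc1 and Bhlha15 held none of the 5 motifs. Barx2, Sox9, Sox10 and Ehf had no entry.

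Totals ran from 49480781 to 103936830 counts per mouse, and the library of BALB/c 6M replicate 1 was the deepest. The lowest count of any of the factors in any mouse was 147, for Barx2. Levels are given as CPM (library-scaled counts, TMM method), and levels of different genes are compared per kb of exon. Averaged over the 18 mice, the order per kb was Bhlha15 at 230.3 CPM per kb, Ehf at 55.0, Sox9 at 30.6, Foxc1 at 24.3, Pax6 at 17.0, Elf5 at 8.03, Barx2 at 4.57, Spdef at 3.78 and Sox10 at 2.58. The acinar factor Bhlha15 thus had the highest level per length and the neural crest and myoepithelial factor Sox10 the lowest. The tissue label was checked on markers: Epcam, an epithelial adhesion molecule, had between 4489 and 10458 counts in every mouse, and of 8 salivary markers listed 6 had at most 9 counts in any mouse. The other 2, the amylase Amy1 and the proline-rich Prol1, had 13 to 107 and 98 to 1045 counts, so salivary markers were not all absent.

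Each factor was lower in NOD.H-2b than in BALB/c LGs over the 3 ages. Averaged over ages in 1 fit of all 18 mice, 9 of 9 factors were called lower (FDR under 0.05, edgeR's quasi-likelihood test), against 33.1% of 19117 genes called lower and 32.5% called higher. The median log2 fold change of the 9 was -0.43, and that of all genes was -0.02. Only Barx2 and Elf5 also passed a fold change of 2, the size that with the FDR defines a DEG here. At 2M those 2 factors were the only ones called lower, against 17.2% of 17200 genes. By 4M 7 were called lower, against 19.2% of 17722 genes, and by 6M 8, against 25.8% of 17750 genes. None was called higher at any age. In RNA from whole glands, fewer cells of a type and less RNA per cell cannot be told apart.

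**Figure D1:**
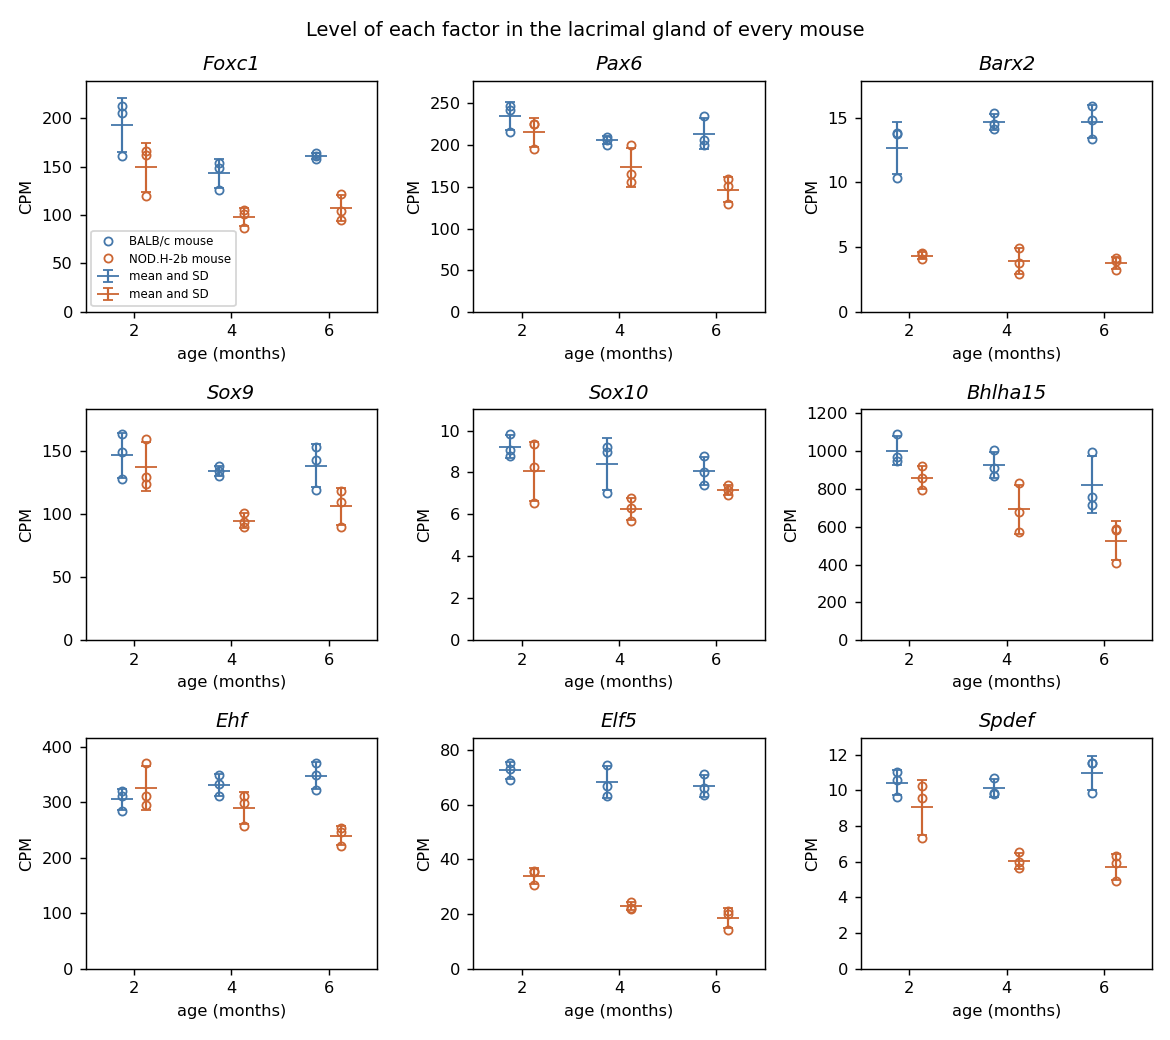
CPM of each factor (y axis, from 0) by age in months (x axis), with 1 open circle per mouse and the mean and SD of 3 mice per group, BALB/c in blue and NOD.H-2b in orange. The strains are apart at every age for Barx2, Elf5 and Bhlha15, and for Ehf at 6M only.

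Among the factors of bud formation, Pax6, the paired box factor of the eye and its surface, had 215, 247 and 242 CPM in the BALB/c mice at 2M and 226, 195 and 225 CPM in the NOD.H-2b mice. At 4M the values were 206, 201 and 210.3 CPM against 166, 155 and 199.8 CPM, and at 6M they were 206, 201 and 235 CPM against 129.9, 159 and 151 CPM. The strains overlapped at 2M and were apart at 4M and 6M, with NOD.H-2b replicate 3 at 4M close to the BALB/c range. Against BALB/c, the log2 fold change of Pax6 at 2M was -0.08 ± 0.07 (SE), followed by -0.24 ± 0.09 at 4M and -0.51 ± 0.10 at 6M, and only the last was called (adjusted p = 0.00192, edgeR). At 4M the adjusted p was 0.0614 by edgeR, and it was 0.00331 without NOD.H-2b replicate 3. With all 6 mice kept, the 4M difference was called under 4 of the 8 other settings tried: the upper quartile, no filter, the replicate block and the fit of all 18 mice, with adjusted p of 0.0164 to 0.0495 by edgeR.

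Foxc1, a forkhead factor needed for LG budding, had 161, 205 and 213 CPM in BALB/c at 2M and 166, 162 and 119.6 CPM in NOD.H-2b, with overlap. The levels were 154, 126 and 148 CPM against 87.0, 101 and 105 CPM at 4M, and 157, 161 and 164 CPM against 95.3, 121 and 104 CPM at 6M, with no overlap at either age. Foxc1 was called lower at 4M by -0.54 ± 0.10 on the log2 scale (adjusted p = 0.00138, edgeR) and at 6M by -0.55 ± 0.10 (adjusted p = 0.000923, edgeR). The 2M difference of -0.33 ± 0.17 was not called in the fit of the 6 mice (adjusted p = 0.184, edgeR) and was called in the fit of all 18 mice, where it was -0.37 (adjusted p = 0.0335, edgeR).

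Barx2, a homeobox factor of branching and of epithelial and muscle differentiation, showed the widest gap of the 9. Its levels in BALB/c were 13.8, 13.8 and 10.3 CPM at 2M, 15.3, 14.5 and 14.2 CPM at 4M, and 15.9, 14.8 and 13.4 CPM at 6M. The NOD.H-2b mice had 4.54, 4.43 and 4.06 CPM at 2M, 3.80, 4.96 and 2.94 CPM at 4M, and 3.92, 3.26 and 4.15 CPM at 6M. The highest NOD.H-2b mouse of any age had 4.96 CPM and the lowest BALB/c mouse 10.3 CPM. Levels were 2.82-fold lower at 2M, 3.73-fold at 4M and 3.80-fold at 6M, with log2 fold changes of -1.50 ± 0.12, -1.90 ± 0.17 and -1.93 ± 0.13 (adjusted p = 3.05e-06, 3.07e-05 and 1.42e-06, edgeR).

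Of the SOX factors, Sox9, which acts downstream of FGF10 in the LG bud, did not separate the strains at 2M, with 149, 128 and 164 CPM in BALB/c and 124, 129.7 and 160.1 CPM in NOD.H-2b. The levels at 4M were 134, 130.2 and 138 CPM against 89.8, 94.2 and 101 CPM, and at 6M 143, 119.7 and 153 CPM against 90.1, 110.3 and 119 CPM. The strains were clearly apart at 4M and nearly touched at 6M. The log2 fold change was -0.05 ± 0.13 at 2M, -0.49 ± 0.07 at 4M (adjusted p = 0.000315, edgeR) and -0.35 ± 0.12 at 6M (adjusted p = 0.0337, edgeR). The 6M call was lost when either BALB/c replicate 1 or 3 or either NOD.H-2b replicate 1 or 2 was left out, with adjusted p of up to 0.104 by edgeR. It was also lost with at least 10 counts in every sample (adjusted p = 0.0594, edgeR).

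Sox10, a factor of secretory branching in the LG that also marks Schwann cells and melanocytes, had the lowest level per length. It had 9.82, 8.78 and 9.08 CPM in BALB/c at 2M against 8.27, 6.56 and 9.34 CPM in NOD.H-2b. The values at 4M were 7.00, 8.98 and 9.23 CPM against 6.77, 5.70 and 6.31 CPM, and at 6M 7.41, 8.03 and 8.77 CPM against 7.38, 7.16 and 6.94 CPM. The strains did not overlap at 4M and 6M, but their nearest mice were almost level at 6M. It was called at 4M alone, with a log2 fold change of -0.42 ± 0.14 (adjusted p = 0.0351, edgeR), and that call was lost when BALB/c replicate 2 or 3 or NOD.H-2b replicate 2 or 3 was left out (adjusted p of up to 0.116, edgeR). With every mouse kept it was also lost under the replicate block (adjusted p = 0.0665, edgeR), with at least 10 counts in every sample (adjusted p = 0.0503, edgeR) and relative to the epithelial list described further on (adjusted p = 0.444, edgeR). At 6M the difference was -0.13 ± 0.11, with a nominal 95% interval from -0.35 to 0.08. Of the 9 Schwann cell markers listed, Foxd3 was at 0 in every mouse and Erbb3, which epithelium also expresses, gave most of the sum. That sum ran from 157.7 to 176 CPM in BALB/c at 6M and from 101 to 110.4 CPM in NOD.H-2b. The 5 melanocyte markers summed to at most 0.953 CPM in any mouse, and Tyrp1 was at 0 in all. The part of nerve in the level of Sox10 was not tested.

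Bhlha15, the acinar bHLH factor, was the most abundant. At 2M it had 947, 971 and 1088 CPM in BALB/c and 858, 796 and 919 CPM in NOD.H-2b, so every NOD.H-2b mouse was below every BALB/c mouse. The same held at 4M, with 909, 866 and 1002 CPM against 676, 571 and 829 CPM, and at 6M, with 759, 716 and 992 CPM against 409, 583 and 589.5 CPM. Its log2 fold change was -0.18 ± 0.07 at 2M (adjusted p = 0.0517, edgeR), -0.41 ± 0.13 at 4M (adjusted p = 0.0287, edgeR) and -0.61 ± 0.17 at 6M (adjusted p = 0.0136, edgeR). The 2M difference passed the threshold under 6 of the 8 other settings tried, DESeq2's Wald test among them, and not with at least 10 counts in every sample or in the fit of all 18 mice. The 4M call was lost when BALB/c replicate 1 or 3 or NOD.H-2b replicate 1 or 2 was left out, with adjusted p of up to 0.106 by edgeR.

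The 3 ETS factors differed from each other. Ehf, expressed in most simple epithelia, had 320.5, 312 and 284 CPM in BALB/c at 2M against 371, 310.5 and 295 CPM in NOD.H-2b, and 332, 349 and 311 CPM against 257, 312 and 299 CPM at 4M. The strains overlapped at both ages. At 6M the values were 348, 323 and 371 CPM against 221, 253 and 246 CPM, with no overlap. Against BALB/c, Ehf differed by 0.13 ± 0.08 on the log2 scale at 2M, by -0.19 ± 0.09 at 4M and by -0.50 ± 0.09 at 6M, the last of which was called (adjusted p = 0.00134, edgeR).

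Elf5, which sets secretory cell fate in the mammary gland, was lower in NOD.H-2b at every age. The BALB/c mice had 73.1, 75.3 and 69.1 CPM at 2M, 66.9, 74.6 and 63.1 CPM at 4M, and 65.9, 63.5 and 71.3 CPM at 6M. The NOD.H-2b mice had 35.4, 30.7 and 35.9 CPM at 2M, 22.3, 21.9 and 24.4 CPM at 4M, and 14.2, 21.3 and 20.1 CPM at 6M. The lowest of the 9 BALB/c mice had 63.1 CPM, while each NOD.H-2b age group lay below the one before it without overlap. Between 4M and 6M the nearest NOD.H-2b mice had 21.9 and 21.3 CPM, and that step was not called (adjusted p = 0.408, edgeR). Levels were 2.07-fold lower at 2M, 2.97-fold at 4M and 3.53-fold at 6M, with log2 fold changes of -1.05 ± 0.07, -1.57 ± 0.08 and -1.82 ± 0.14 (adjusted p = 3.95e-07, 1.43e-06 and 9.13e-06, edgeR).

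Spdef, a factor of goblet and other mucus-secreting cells, had 11.0, 10.6 and 9.65 CPM in BALB/c at 2M and 9.58, 7.31 and 10.2 CPM in NOD.H-2b, with overlap. At 4M the levels were 9.79, 10.7 and 9.84 CPM against 5.96, 5.64 and 6.55 CPM, and at 6M 9.86, 11.5 and 11.5 CPM against 4.90, 5.95 and 6.29 CPM, far apart at both ages. Its log2 fold change was -0.16 ± 0.12 at 2M, -0.73 ± 0.11 at 4M (adjusted p = 0.000601, edgeR) and -0.91 ± 0.13 at 6M (adjusted p = 0.000224, edgeR).

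**Figure D2:**
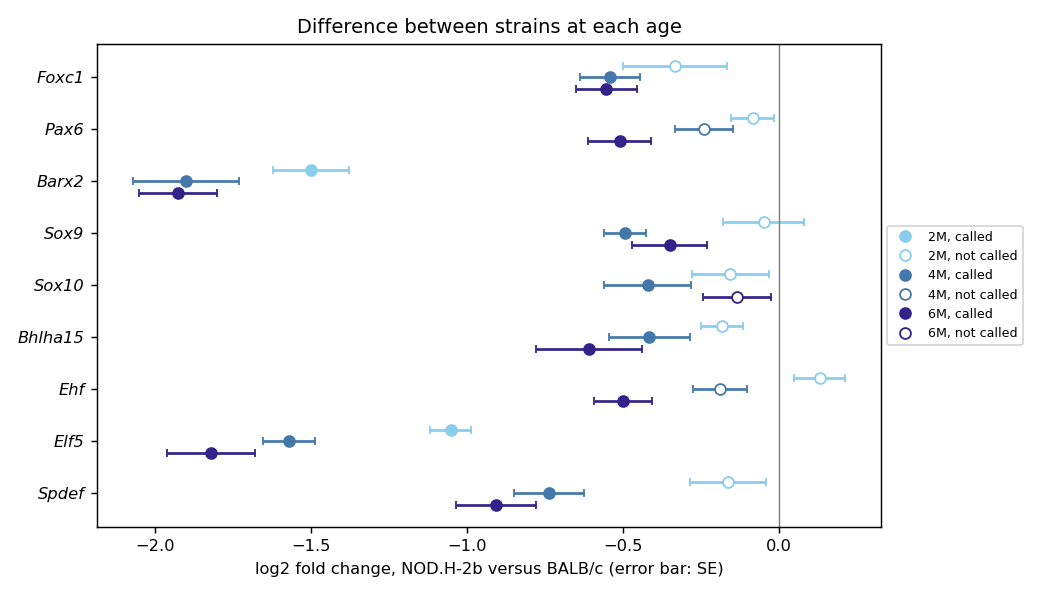
Log2 fold change of NOD.H-2b versus BALB/c (x axis) for each factor at 2M, 4M and 6M, with SE as error bars, filled where the factor was called and open where it was not. Barx2 and Elf5 lie at -1.05 or lower at each age, and the other 7 lie between -0.91 and 0.13.

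Whether the strain difference changed with age was tested directly in the fit of all 18 mice. From 2M to 6M, 4 of the 9 factors had a strain difference that became more negative, against 9.09% of 19117 genes called in that direction. The same change was called for 29 of 40 genes of epithelial structure and for 10 of 32 other transcription factors of gland epithelium. The 4 were Pax6 (-0.42 ± 0.14, adjusted p = 0.0432), Ehf (-0.62 ± 0.13, adjusted p = 0.00519), Elf5 (-0.76 ± 0.16, adjusted p = 0.00535) and Spdef (-0.74 ± 0.17, adjusted p = 0.00969) by edgeR. For Barx2 this change was -0.42 ± 0.21 with an interval from -0.84 to -0.0043, and for Sox10 it was 0.03 ± 0.18 with an interval from -0.32 to 0.38. Neither was called. From 2M to 4M 0 of 9 were called by edgeR, with 4 at an unadjusted p under 0.05 and 1 called by DESeq2 (Elf5), against 1.67% of genes called in either direction. The Pax6 change lost its call when BALB/c 2M replicate 1, BALB/c 6M replicate 3, NOD.H-2b 2M replicate 1 or 3, or NOD.H-2b 6M replicate 1 or 3 was left out, with adjusted p of up to 0.116 by edgeR. It was also lost with all mice kept under DESeq2 size factors, at -0.39 (adjusted p = 0.0554, edgeR).

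Within the NOD.H-2b strain, 4 factors were called lower at 4M than at 2M, against 5.48% of 17763 genes: Elf5 (-0.57 ± 0.08, adjusted p = 0.0074), Sox9 (-0.54 ± 0.10, adjusted p = 0.0126), Foxc1 (-0.61 ± 0.13, adjusted p = 0.0255) and Spdef (-0.58 ± 0.14, adjusted p = 0.0292) by edgeR. Each of the Foxc1 and Spdef calls was lost when any 1 of 4 mice was left out: NOD.H-2b 4M replicate 1 or 2 for both, 2M replicate 1 for both, and 2M replicate 2 for Foxc1 or 3 for Spdef. In BALB/c only Pax6 was called, at -0.19 ± 0.05 (adjusted p = 0.0443, edgeR), against 5.01% of 16639 genes called lower, and that call too was lost when BALB/c 2M replicate 2 or 3 or 4M replicate 1 or 2 was left out. From 4M to 6M 0 of 9 were called in BALB/c, where 0.307% of genes were called, and 0 of 9 in NOD.H-2b, where 0.00555% were. In each of these 1 factor had an unadjusted p under 0.05, and DESeq2's Wald test called 0. The NOD.H-2b comparisons with 2M share mice with the strain comparisons, so they are not separate evidence.

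Ordered by group mean, the levels of Elf5 fell into 4 steps: the 3 BALB/c groups, which did not differ beyond their spread, then NOD.H-2b at 2M, 4M and 6M, each apart from the last. The step from 4M to 6M was narrow, with the nearest mice at 21.9 and 21.3 CPM. It was not called (-0.29 ± 0.15, adjusted p = 0.408, edgeR). Barx2 had the 3 BALB/c groups above the 3 NOD.H-2b groups, and the latter overlapped from 3.78 ± 0.47 (SD, n = 3) CPM at 6M to 4.34 ± 0.25 CPM at 2M. Spdef and Sox9 had the NOD.H-2b mice at 4M and 6M below all other groups, and those 2 groups overlapped each other. Foxc1 had its lowest means in the same 2 groups, which overlapped too. Its highest NOD.H-2b mouse at 6M, at 121 CPM, was above the lowest NOD.H-2b mouse at 2M, at 119.6 CPM. Ehf in NOD.H-2b at 6M, at 240.0 ± 17.0 CPM, stood below every other group. Bhlha15 gave no break between neighbouring groups, from 1002 ± 75.6 CPM in BALB/c at 2M to 527 ± 103 CPM in the NOD.H-2b glands at 6M.

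The factors moved beside a broad change in the cell type markers of the gland. Of 14 acinar markers, 13 were called lower and 1 higher averaged over ages, and their sum ran from 9206 to 11700 CPM in BALB/c at 6M and from 3255 to 4859 CPM in NOD.H-2b. Over all genes 33.1% were called lower and 32.5% higher in that comparison. Most of the sum came from Lpo, a secreted peroxidase, whose mean at 6M was 8118 CPM in BALB/c against 3371 CPM in the NOD.H-2b glands, and from Car6, a secreted carbonic anhydrase, at 1224 against 99.8 CPM. Both are named after their values were seen. The other 12 markers at 6M summed to between 820.5 and 845.5 CPM in BALB/c, against between 572 and 632 CPM in the other strain, and the median log2 fold change of the 14 was -0.45. The 40 genes of epithelial structure, such as junction proteins and keratins, differed by age: at 2M 15 were called higher and 7 lower with a median log2 fold change of 0.03, and at 6M 3 higher and 29 lower with a median of -0.51. Over all genes 22.5% were called higher at 2M and 28.6% at 6M. Of 10 ductal markers tested 5 were called higher and 3 lower averaged over ages, and of 11 myoepithelial markers 1 and 2, against the same 32.5% and 33.1% of all genes. B cell markers summed to between 0.969 and 27.3 CPM in the NOD.H-2b mice at 2M, so these 3 mice differed widely, and to between 212 and 419 CPM at 6M, against at most 2.30 CPM in any BALB/c mouse. T cell markers at 6M ranged from 73.8 to 104 CPM in the NOD.H-2b glands and from 1.56 to 1.98 CPM in BALB/c. The part of immune cells in the levels of the factors was not tested.

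**Figure D3:**
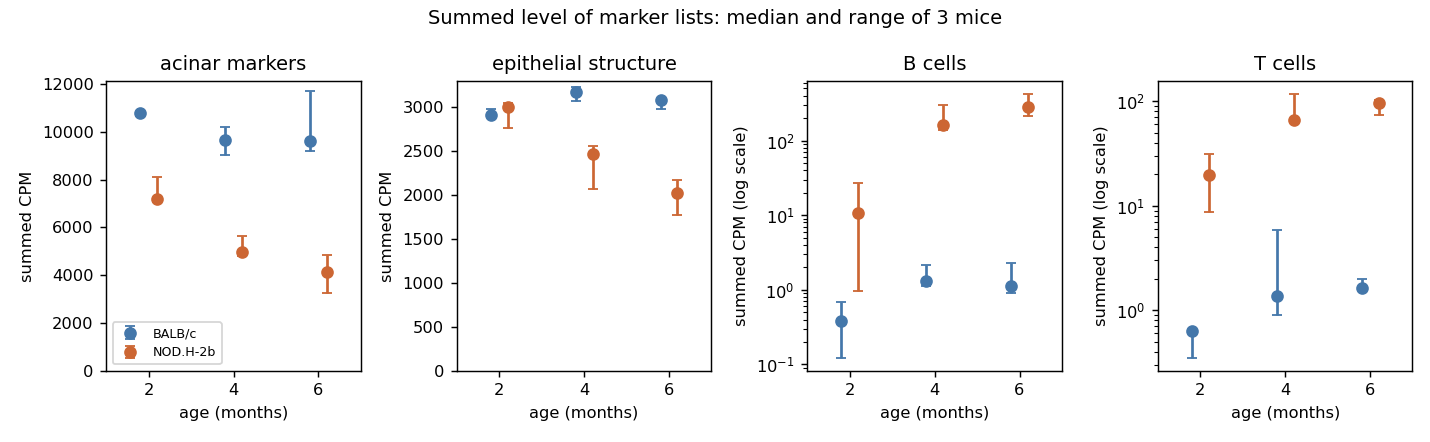
Summed CPM of 4 marker lists (y axis, log scale for B and T cells) by age in months, as the median and range of the 3 mice of each group. Acinar sums, of which Lpo and Car6 make up most, are lower in NOD.H-2b at every age, the epithelial structure sums overlap at 2M, and the B and T cell sums of NOD.H-2b are above those of BALB/c at every age.

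A second scaling held the geometric mean of the 40 epithelial structure genes equal in all mice, which gives the factors relative to that list. It moved the log2 fold change of the median gene by -0.30 at 2M, 0.22 at 4M and 0.21 at 6M. Relative to epithelium, Barx2 was lower by -1.79 ± 0.12 at 2M, -1.69 ± 0.19 at 4M and -1.71 ± 0.18 at 6M, and Elf5 by -1.35 ± 0.07, -1.35 ± 0.12 and -1.62 ± 0.12, all called. Spdef and Foxc1 were also called at each age, Spdef at -0.46, -0.52 and -0.71 and Foxc1 at -0.63, -0.33 and -0.35. In all, 7 factors were called lower at 2M, 5 at 4M and 7 at 6M, and none higher. Over all genes this scale called, in either direction, 10177 of 17200 at 2M, 6295 of 17722 at 4M and 8200 of 17750 at 6M. Not called on this scale but called under TMM were Bhlha15 at 4M (adjusted p = 0.315, edgeR), Sox10 at 4M and Sox9 at 6M (adjusted p = 0.283, edgeR). Ehf had -0.17 at 2M and 0.02 at 4M, each with the sign opposite to that under TMM, and Sox10 had 0.08 at 6M, also of opposite sign, and none of these 3 was called. Averaged over ages 8 of 9 factors were called lower, against 11212 of 19117 genes called in either direction. Sox10, at -0.19 ± 0.09, was not called (adjusted p = 0.0764, edgeR). The change of the strain difference from 2M to 6M was called for 0 of 9 on this scale by edgeR: Elf5 had -0.27 ± 0.15 and Spdef -0.24 ± 0.20, Ehf -0.12 ± 0.11 and Pax6 0.08 ± 0.13. Within strains this scale called 0 of 9 between 2M and 4M in NOD.H-2b by edgeR, where the lowest adjusted p was 0.0802 and 2934 of 17763 genes were called. In BALB/c 7 factors were called lower between 2M and 4M, where 5879 of 16639 genes were called in either direction. Between 4M and 6M 5 factors were called higher in BALB/c, beside 3391 of 16622 genes in either direction. In these BALB/c comparisons the scaling itself moved the median gene by -0.22 and 0.25, against factor medians of -0.33 and 0.28.

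**Figure D4:**
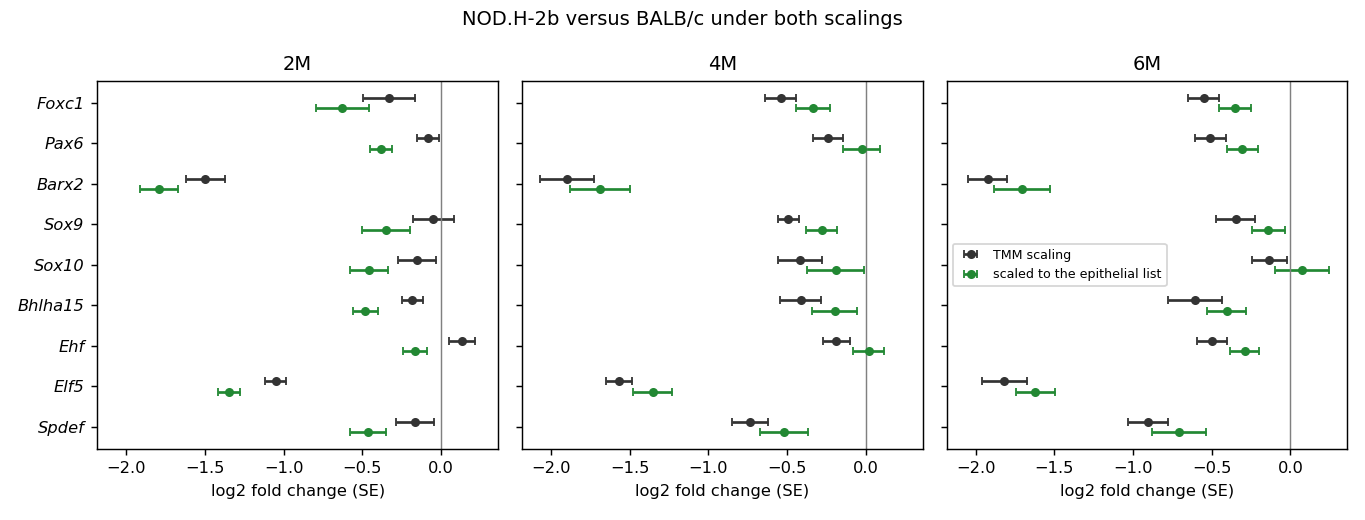
Log2 fold change of NOD.H-2b versus BALB/c (x axis, SE as error bars) of each factor under TMM (black) and with the epithelial structure list held equal (green), for 2M, 4M and 6M. Barx2 and Elf5 lie at -1.05 or lower under both scalings, while Ehf at 2M and 4M and Sox10 at 6M change sign.

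Other genes of the pathways the factors belong to are given by counts. Of 24 genes of FGF10 bud induction, 15 were called lower and 4 higher averaged over ages, with a median log2 fold change of -0.27, against 33.1% of all genes called lower and 32.5% higher. The largest were Wnt5a, a secreted ligand, at 1.54 ± 0.22 (adjusted p = 4.2e-06, edgeR) and Fgfr1, a receptor, at -1.05 ± 0.05 (adjusted p = 3.57e-12, edgeR). By single age Wnt5a was called at 2M and 6M and not at 4M (0.52 ± 0.34, adjusted p = 0.255, edgeR). The ligand Fgf10 itself, at -0.47 ± 0.11, and its receptor Fgfr2, at -0.51 ± 0.08, were both called lower by edgeR and are named after their values were seen, for their role in budding. At 2M neither was called, with Fgf10 at 0.16 ± 0.185 and Fgfr2 at -0.11 ± 0.11 (adjusted p = 0.529 and 0.476, edgeR). Of 42 other transcription factors of gland epithelium, 32 were tested, with 23 called lower and 6 higher and a median of -0.41, beside the same shares over all genes. The largest were Grhl3, a grainyhead factor, at 3.67 ± 0.85 and Runx3, which T cells also express, at 3.22 ± 0.22. Grhl3 did not have enough counts to test between the strains at any single age. Its value therefore rests on the fit averaged over ages alone. Tfap2b, an AP-2 factor also named after its value was seen, was at -2.42 ± 0.09, a larger drop than that of Barx2 or Elf5.

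Of 6 genes listed as targets of Bhlha15, 5 were tested. Averaged over ages 4 were called lower and 1 higher, against 33.1% and 32.5% of all genes. Rab26, a small GTPase of secretory granules, was the higher one, at 1.10 ± 0.07 (adjusted p = 6.79e-11, edgeR), and Rab3d, another granule GTPase, was at -0.60 ± 0.04 (adjusted p = 6.62e-10, edgeR). Of 13 genes of the mucous programme of Spdef, 4 had enough counts to test. Agr2, a disulfide isomerase of mucus secreting cells, was called lower at -0.59 ± 0.08 (adjusted p = 2.6e-06, edgeR), and Galnt12, which starts O-linked glycans, was called higher at 0.37 ± 0.09 (adjusted p = 0.000979, edgeR). By single age Galnt12 was called at 2M only, with adjusted p of 0.0506 at 4M and 0.0718 at 6M by edgeR. The other 2 genes tested were not called averaged over ages. St6galnac1, among them and named after its value was seen, was called lower at 4M (-1.44 ± 0.265, adjusted p = 0.00216, edgeR).

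For each factor the genes with the most similar profile over the 18 mice were found among 11878 genes, by the root mean square (RMS) difference of log2 CPM centred on each gene's mean. All 18 mice share the strain difference, so the likeness is a description. Elf5 was nearest to Pla2g12a, a secreted phospholipase, at an RMS of 0.115, and then to Nudt18 at 0.157, against an SD of 0.811 of Elf5 itself. Barx2 was nearest to Srp9, a subunit of the signal recognition particle, at 0.203 and Slc48a1, a heme transporter, at 0.239, and its own SD was 0.922. Bhlha15 was nearest to Grin1os at 0.107 and to Creb3l2, a membrane-bound factor of secretory capacity, at 0.125. Pax6 was nearest to Rfng at 0.0694 and Mmadhc at 0.0699, Ehf to G6pdx at 0.0703 and Nfs1 at 0.0857, and Spdef to Papss1 at 0.120 and Otx1 at 0.125. Sox9 was nearest to Ripk4 at 0.122 and Rab18 at 0.125, Sox10 to Lama3 at 0.113 and Dvl3 at 0.123, and Foxc1 to Fosl2 at 0.156 and Dcaf10 at 0.160. Between the factors themselves the closest pair was Pax6 and Bhlha15, at 0.140.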

How the data were processed

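Bulk RNA-seq of LGs of 18 male mice, 3 in each of 6 groups of strain and age, was analyzed. The authors deposited raw counts per Ensembl gene. Per the labels and the submitters' processing notes, total RNA was depleted of ribosomal RNA and sequenced as paired ends, and cutadapt, STAR, HTSeq and GRCm38 were used; the annotation release, strand setting and handling of reads with several matches are not given in the sources used here. A second deposited table of log2 values was not used.

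Gene names, coordinates and exon lengths came from GENCODE M21. Counts were analyzed in R 4.3.3 with edgeR 4.0.16 (TMM, filterByExpr, robust quasi-likelihood test, Benjamini-Hochberg adjustment over all genes tested). Pairs of groups were fitted on their 6 mice, and averages over ages and strain by age on all 18. A gene was called at an FDR under 0.05, and a DEG also had a fold change of 2 or more. SE is the absolute log2 fold change over the root of F, and nominal 95% intervals are 1.96 SE each way. With few mice this normal quantile makes them narrower than the edgeR test, so an interval can exclude 0 at a p over 0.05. Pairs of replicates differed by a chi-square per gene of 17.7 to 91.1, above counting error. The members and the gene lists were chosen with earlier results of these data known. All 9 factors are named, and from each pathway list the 2 called genes with the largest absolute log2 fold change averaged over ages, from the marker lists only sums and counts, and for likeness the 2 nearest genes, among those whose mean log2 CPM reached 1. Genes named outside this rule are marked as such. Alternatives were DESeq2 1.42.0 (size factors and Wald test), the upper quartile, no filter, at least 10 counts in every sample, the replicate number as a block, scaling to the epithelial list, 1 fit of all 18 mice and leaving out each mouse. The tests were tested on simulated data, and they missed part of the changes of a fold of 2 or less, more of them in the strain by age test. Labels give no date or batch of preparation.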

Additional observations from a re-analysis of the deposited data

Results flagged for a closer look

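The strain difference changed from 2M to 6M for 4 of the 9 factors by a test of the change itself (edgeR, all 18 mice). Over all genes 9.09% of 19117 were called in the same direction, and so were 29 of 40 genes of epithelial structure. The change in log2 fold change was -0.42 for Pax6, -0.62 for Ehf, -0.76 for Elf5 and -0.74 for Spdef, each more negative at 6M. With the epithelial structure list held equal the changes were 0.08, -0.12, -0.27 and -0.24, and none of the 4 was called.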

How the results depend on the processing

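The lower levels of Barx2 and Elf5 in NOD.H-2b at 2M, 4M and 6M kept direction and call under every alternative tried, the epithelial scaling and each left-out mouse included. Averaged over ages, all 9 factors were called lower under each alternative that gives this value, except the epithelial scaling, which called 8. In this comparison the reported fit called 33.1% of 19117 genes lower, and the epithelial scaling called 11212 of 19117 in either direction. With 3 mice per group, small changes are hard to call. With the epithelial list held equal, the number of factors called was 7 at 2M, 0 for strain by age from 2M to 6M, 1 for 2M to 4M, 7 for BALB/c 4M versus 2M, 5 for BALB/c 6M versus 4M and 0 for NOD.H-2b 4M versus 2M. Log2 fold changes that took the opposite sign under it were Ehf at 2M (-0.17) and 4M (0.018) and Sox10 at 6M (0.076) between strains; Ehf in BALB/c 4M versus 2M (-0.10); Barx2 (0.24), Sox10 (0.18), Bhlha15 (0.064) and Elf5 (0.21) in BALB/c 6M versus 4M; Barx2 (0.11) and Ehf (0.089) in NOD.H-2b 4M versus 2M; and Pax6 (0.013), Barx2 (0.22) and Spdef (0.17) in NOD.H-2b 6M versus 4M. For strain by age from 2M to 4M they were Pax6 (0.36, called), Foxc1 (0.29), Barx2 (0.10), Sox9 (0.071), Sox10 (0.26), Bhlha15 (0.29) and Ehf (0.18), and from 2M to 6M Pax6 (0.077, a called decrease in the reported fit), Foxc1 (0.27), Barx2 (0.082), Sox9 (0.21) and Bhlha15 (0.077). In the fit of all 18 mice Barx2 in BALB/c 6M versus 4M was 0.0035.

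The 1 factor called in BALB/c 4M versus 2M became 0 with the upper quartile, the replicate block and the fit of all 18 mice, and 2 with no filter and with DESeq2's Wald test, which also called 1 for strain by age from 2M to 4M. The replicate block left 2 of the 4 factors of NOD.H-2b 4M versus 2M called, with 308 in place of 2799 genes; mice with the same number had correlations of their deviations from -0.3 to 0.298 over the comparisons, so the numbers were not treated as pairs, and the cause was not tested. The block called 594 genes in place of 1 in NOD.H-2b 6M versus 4M, where no filter gave 75, DESeq2's Wald test 166 and the fit of all 18 mice 747, and none of these 4 called a factor. In BALB/c 6M versus 4M the 51 genes called became 847 with no filter, 433 with DESeq2's Wald test and 124 in the fit of all 18 mice. In BALB/c 4M versus 2M the 1849 became 2934 with no filter and 900 in the fit of all 18 mice, which gave 4348 in place of 2799 in NOD.H-2b 4M versus 2M; for strain by age from 2M to 4M DESeq2's Wald test gave 952 in place of 320. Epithelial scaling gave 5879, 3391 and 6578 genes in BALB/c 4M versus 2M, BALB/c 6M versus 4M and strain by age from 2M to 4M, and 6147 in place of 3083 from 2M to 6M. Between strains at 2M it gave 10177 in place of 6837.

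Leaving out each mouse in turn, the number of factors called ran from 2 to 3 at 2M, 5 to 7 at 4M, 7 to 8 at 6M, 0 to 2 in BALB/c 4M versus 2M, 0 to 1 in BALB/c 6M versus 4M, 2 to 6 in NOD.H-2b 4M versus 2M, 0 to 1 for strain by age from 2M to 4M and 3 to 4 from 2M to 6M. In BALB/c 6M versus 4M the 1 was Bhlha15, at -0.34 without BALB/c 6M replicate 3. With all mice kept, 17.2%, 19.2% and 25.8% of all genes were called lower between strains at 2M, 4M and 6M. The share called lower was 5.01% in BALB/c 4M versus 2M, 5.48% in NOD.H-2b 4M versus 2M and 9.09% for strain by age from 2M to 6M. Values that changed sign ran from -0.18 to 0.031 for Sox9 between strains at 2M, from -0.10 to 8e-04 for Spdef in BALB/c 4M versus 2M, and from -0.10 to 0.15 for Sox10 in strain by age from 2M to 6M. In BALB/c 6M versus 4M they ran from -0.030 to 0.090 for Pax6, -0.071 to 0.056 for Barx2, -0.041 to 0.13 for Sox9, -0.19 to 0.0011 for Sox10 and -0.091 to 0.030 for Elf5, and in NOD.H-2b 6M versus 4M from -0.20 to 0.17 for Barx2 and -0.14 to 0.026 for Spdef. None of these values was called in the reported fit.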
